A study of Mus musculus with 2 samples.

Results

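The genes described here are 50 mouse genes of ribosome biogenesis and the nucleolus, chosen by symbol from their known roles, with earlier results of these data known. They are 50 of the 20830 genes listed with short-read counts in one table and of the 26997 listed in the other, and all 50 are in both tables. By role they are 6 abundant nucleolar proteins, 3 proteins of box C/D snoRNPs, 4 proteins of box H/ACA snoRNPs, 4 genes of RNA polymerase I transcription, 20 factors of the small ribosomal subunit and 13 of the large subunit.

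The cells were muscle stem cells (MuSCs) of Pax7CreERT2;R26RYFP mice on a C57BL6 background, in which tamoxifen turns on YFP in cells that express Pax7. The mice were 3 months old when they received 100 uL of tamoxifen at 20 mg/ml daily for 5 days. Quiescent MuSCs came from uninjured hindlimb muscle and activated MuSCs from muscle taken 72 h after injection of 40 uL of 1.2% barium chloride, and both carried the same alleles and the same tamoxifen treatment and were sorted on YFP. They went through 1 capture with the 10x 3′ protocol and its droplets were divided into a 10% aliquot, sequenced on Illumina and nanopore platforms, and a 90% aliquot, sequenced on Illumina alone. No barcode carries a label of its origin, the number of mice is not given in the sources used here and there is 1 sample per aliquot, so no test was run and every interval below is a 95% interval that covers counting error only.

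Ribosomes are assembled in the nucleolus, where RNA polymerase I transcribes a long precursor of the ribosomal RNAs. Small nucleolar RNPs (snoRNPs) modify the precursor, endonucleases and exonucleases cleave and trim it, and assembly factors fold it with ribosomal proteins into the small and the large subunit before both leave the nucleus. Quiescent stem cells are small cells with low metabolic activity, and activation is known to bring growth, a larger nucleolus and more ribosome synthesis before and during the first divisions.

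Since origin is not labelled, barcodes were compared by depth and by cell cycle transcripts. Shallow barcodes had 3000 to 15000 UMIs and 0 UMIs of Rrm2, Top2a and Cdk1, which are genes of DNA replication and mitosis, and deep barcodes had at least 20000 UMIs. The 10% aliquot held 157 shallow barcodes (median 6729 UMIs, 1114508 UMIs in all) and 79 deep barcodes (median 65499, 5099209 in all). The 90% aliquot held 1243 shallow barcodes (median 4680, 6452314 in all) and 606 deep barcodes (median 47106, 29875734 in all). Levels are in CPM, the UMIs of a gene summed over a set and scaled to the same total of UMIs in every set, so they are relative to all RNA counted in those barcodes. In UMIs per barcode all 50 members were higher in deep barcodes in both aliquots, which the rule on depth itself favours. Depth and set cannot be told apart in any comparison below.

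The counts of the aliquots did not come from separate cells, although the droplets are described as divided. How the same barcodes came to be in both tables is not known. The tables shared 634 barcodes, all 236 barcodes of both sets of the 10% aliquot were listed in the 90% table, and 76 of its 79 deep and 144 of its 157 shallow barcodes fell in the same set there. For the 269 barcodes of at least 3000 UMIs in the 10% table, the counts of the same barcode in the other table were the closest match in 269 of 269, with a median correlation across genes of 0.927 against 0.663 for other barcodes. Values of the 90% aliquot were therefore also computed on the 1000 shallow and 399 deep barcodes that the 10% table did not list, called unshared below. Leaving the shared barcodes out moved the log2 fold of a member by a median of 0.05 and by at most 0.16 (Heatr1), and the direction differed for Fbl, Polr1b and Utp4, whose folds in the 90% aliquot were near 1.

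Markers of quiescent MuSCs were all lower in deep barcodes, 10 of 10 in each aliquot, and their summed level was 928 CPM in shallow and 131 CPM in deep barcodes of the 10% aliquot (1195 and 135 CPM in the 90% aliquot). Of 8 markers of activated MuSCs, 6 were at least 2-fold higher in deep barcodes in each aliquot. The list holds genes of dividing cells, such as Mki67, Mcm5 and Ccnb1. For these the rule of 0 UMIs of Rrm2, Top2a and Cdk1 in shallow barcodes itself favours this direction. Myod1 and Myf5, the myogenic factors of that list, went the other way, and Myod1 was at 1106 and 185 CPM in shallow and deep barcodes of the 10% aliquot. The shallow set therefore held barcodes with markers of both states and is called by its rule only. Summed markers of immune cells were at 336 and 291 CPM in shallow barcodes of the 10% and 90% aliquots and at 95.5 and 5.12 CPM in deep barcodes, with 3 of the 8 markers at 0 in shallow barcodes of the 10% aliquot. These UMIs lay in few barcodes. In the 10% aliquot 1 shallow barcode held 372 of 375, and in the 90% aliquot 12 shallow barcodes held 1845 of 1876. Their part in the values below was not tested beyond leaving out the barcodes with at least 3 immune UMIs, after which the counts of members called below stayed the same, except that Gnl3 joined those lower in the 90% aliquot and in both aliquots (3 in place of 2). Summed fibroadipogenic markers were at 168 and 46.9 CPM in shallow and deep barcodes of the 10% aliquot and at 258 and 44.5 CPM in the 90% aliquot. Schwann cell markers were at 60.1 and 1.37 CPM and at 2.63 and 0.971 CPM. Myofibre and endothelial markers were also higher in shallow barcodes by their sums, at 74.1 CPM or less. The part of these cells was not tested.

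The 50 members took a median of 0.396% of the UMIs of a shallow barcode and 0.533% of a deep one in the 10% aliquot, and 0.369% and 0.563% in the 90% aliquot. This difference rested on Npm1 and Ncl. Without these 2 genes the medians were 0.293% and 0.291% in the 10% aliquot and 0.285% and 0.298% in the 90% aliquot, so the other 48 members together took nearly the same share of RNA in both sets.

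**Figure D1:**
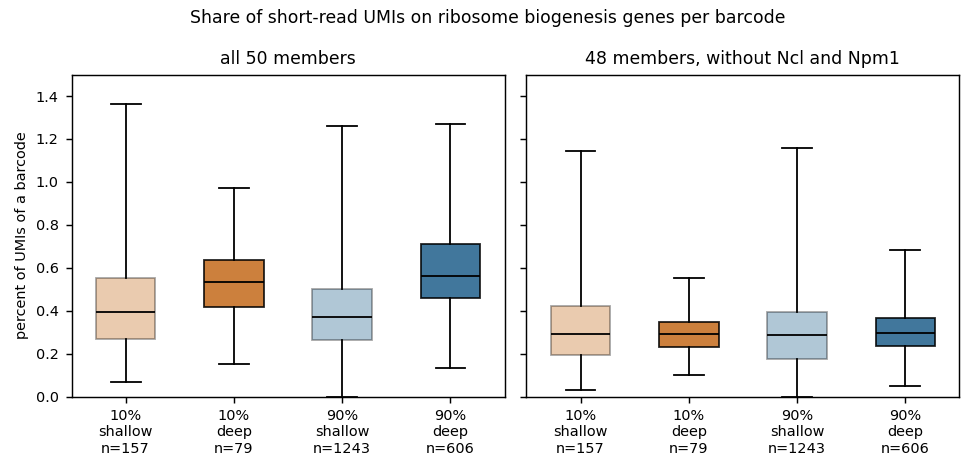
Percent of the short-read UMIs of each barcode that fell on the 50 members (left) and on the 48 members other than Ncl and Npm1 (right), for shallow and deep barcodes of each aliquot, with boxes from the first to the last quartile, a line at the median and whiskers to the lowest and highest barcode. The medians of deep barcodes (0.533% and 0.563%) lie above those of shallow barcodes (0.396% and 0.369%) on the left, and all 4 medians lie between 0.285% and 0.298% on the right.

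Taken gene by gene, the members went in both directions. A gene was called higher or lower where its level, after adding 1 CPM, differed by at least 2-fold, among genes with a mean of at least 5 CPM over the sets, which 49 members passed in each aliquot (all but Wdr74). In the 10% aliquot 5 of 49 members were higher in deep barcodes, against 26.4% of all 8649 genes tested, and 4 were lower, against 18.1%. In the 90% aliquot 7 of 49 were higher, against 26.4% of 8867 genes, and 2 were lower, against 17.6%. In both aliquots 4 members were higher (Npm1, Nhp2, Bop1 and Fcf1; 22.3% of 8238 genes) and 2 were lower (Rrs1 and Gnl2; 15% of genes). The same 6 genes met the limit in the 10% aliquot and in the unshared barcodes, where the background was 22% higher and 14.6% lower of 8193 genes. With every barcode thinned to 3000 UMIs, 11 of 48 members were lower in the 10% aliquot (20.6% of all genes) and 1 in both (13.6%), and with 10 CPM added in place of 1, 2 were higher (13.5%) and 1 was lower (8.84%) in both. The median log2 fold over the members tested was -0.03 in the 10% and 0.11 in the 90% aliquot, beside 0.17 and 0.20 over all genes tested.

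Counted by direction alone, the 10% aliquot and the unshared barcodes placed 25 members above and 19 below a fold of 1 and disagreed on 6. Of all 20501 genes listed in both tables, 9109 lay above and 6014 below 1 in both. That background holds genes of any level, so it is not like the members. The limit on level was passed in both by 8193 of the 20501 genes and by 48 of the 50 members. Counting intervals lay above 1 in both for 13 members (Npm1, Ncl, Mybbp1a, Dkc1, Nhp2, Nop10, Gar1, Emg1, Pno1, Fcf1, Bop1, Pes1 and Ebna1bp2). They lay below 1 in both for 13 others (Gnl3, Ddx21, Nop56, Nop58, Nop14, Mphosph10, Wdr43, Utp3, Utp14a, Ltv1, Rrs1, Gnl2 and Nip7). For no member did they exclude 1 in opposite directions. The share of all genes with intervals that exclude 1 was not computed, so these counts have no background beside them.

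**Figure D2:**
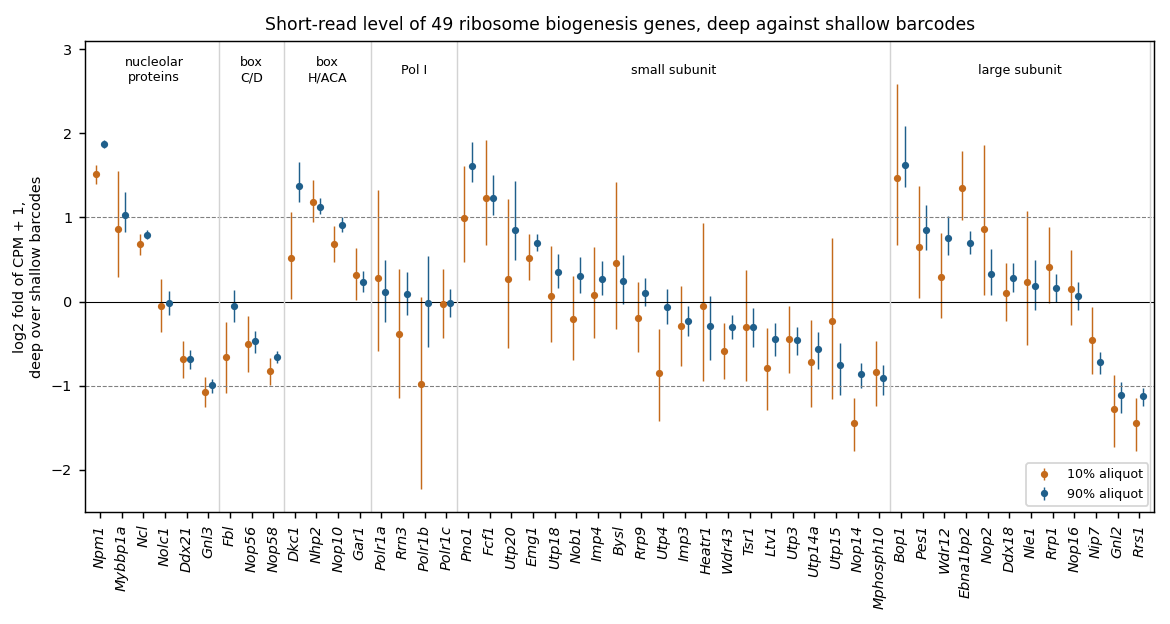
Log2 fold of the short-read level (CPM + 1) of 49 members in deep over shallow barcodes, by role and then by the fold in the 90% aliquot, with 95% counting intervals of the ratio of CPM and dashed lines at 2-fold. Npm1, Bop1 and Pno1 stand at the top of their groups, Gnl3, Rrs1 and Gnl2 at the bottom, and all box C/D and box H/ACA genes lie on opposite sides of 0 in the 10% aliquot.

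Among the nucleolar proteins, Npm1 (nucleophosmin, the abundant nucleolar chaperone) had 656 UMIs in shallow and 8562 in deep barcodes of the 10% aliquot. Its level there was 589 CPM (544 to 635) in shallow and 1679 CPM (1644 to 1715) in deep barcodes, and in the 90% aliquot it was 592 and 2170 CPM. The fold was 2.85 and 3.66, and the count per barcode went from 4.18 to 108 UMIs in the 10% aliquot. Within the sets the level of Npm1 also moved with depth. In unshared shallow barcodes it was 551, 620 and 835 CPM from 3000 to 6000, 6000 to 10000 and 10000 to 15000 UMIs. In unshared deep barcodes it was 1875, 2213 and 2468 CPM from 20000 to 40000, 40000 to 60000 and above 60000 UMIs. In the 10% aliquot it was 539, 559 and 713 CPM in the shallow bins, and in the deep bins, which were not in order of depth, 1353, 1105 and 1851 CPM.

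Ncl (nucleolin, which binds the ribosomal RNA precursor) was at 545 and 874 CPM in shallow and deep barcodes of the 10% aliquot and at 407 and 708 CPM in the 90% aliquot, folds of 1.60 and 1.74. Mybbp1a, a nucleolar partner of transcription factors, was at 22.4 and 41.8 CPM and at 24.6 and 51.4 CPM, and passed 2-fold in the 90% aliquot alone. Gnl3 and Ddx21 went the other way. Gnl3 (nucleostemin, a GTP-binding protein that shuttles in and out of the nucleolus) was at 350 CPM (316 to 386) in shallow and 166 CPM (155 to 178) in deep barcodes of the 10% aliquot, 2.10-fold lower. In the 90% aliquot it was at 255 and 127 CPM, 1.99-fold lower and just outside the limit. Ddx21, an RNA helicase of the nucleolus, was at 211 and 131 CPM and at 142 and 88.3 CPM, 1.61-fold lower in each aliquot. Nolc1, a chaperone of snoRNPs, differed least, with log2 folds of -0.05 (-0.36 to 0.27) and -0.02 (-0.16 to 0.12).

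Of the snoRNP proteins, none of the 3 of box C/D passed 2-fold in either aliquot, and of the 4 of box H/ACA 1 was higher in the 10% and 2 in the 90% aliquot. Of all genes tested 26.4% were higher in each aliquot, and 18.1% and 17.6% were lower. Box C/D snoRNPs carry out ribose methylation, and all 3 members of this class had log2 folds below 0 in the 10% aliquot. Nop58, which with Nop56 forms the scaffold of these particles, was at 378 and 212 CPM in shallow and deep barcodes of the 10% aliquot and at 336 and 213 CPM in the 90% aliquot, 1.77-fold and 1.57-fold lower. Nop56 was at 91.5 and 64.3 CPM and at 93.9 and 67.5 CPM, 1.42-fold and 1.39-fold lower. Fbl (fibrillarin, the methyltransferase) was at 57.4 and 36.1 CPM in the 10% aliquot, but in the 90% aliquot its log2 fold was -0.06 and it was above 0 in unshared barcodes.

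Box H/ACA snoRNPs convert uridine to pseudouridine, and all 4 of their proteins had folds with counting intervals above 1 in both aliquots. With every barcode thinned to 3000 UMIs Dkc1 lay below 1 in the 10% aliquot, with a log2 fold of -0.09 (-1.52 to 1.19) from 17 and 8 UMIs, and at 1.39 in the 90% aliquot. Nhp2, a core RNA-binding subunit, was at 129 CPM (109 to 152) and 295 CPM (280 to 310) in the 10% aliquot and at 151 and 331 CPM in the 90% aliquot, folds of 2.27 and 2.18. Nop10 was at 188 and 302 CPM and at 163 and 307 CPM, folds of 1.61 and 1.88. Gar1 was at 92.4 and 116 CPM and at 93.9 and 111 CPM, folds of 1.25 and 1.18. Dkc1 (dyskerin, the pseudouridine synthase) was at 34.1 and 49.2 CPM in the 10% aliquot and at 24.5 and 65.2 CPM in the 90% aliquot, folds of 1.43 and 2.60. The summed level of these 4 genes was 443 and 761 CPM in the 10% aliquot and 432 and 814 CPM in the 90% aliquot. That of the 3 box C/D genes was 527 and 313 CPM and 473 and 323 CPM.

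The 4 genes of RNA polymerase I transcription showed no difference that the counts could resolve in both aliquots. Polr1c, a subunit shared with RNA polymerase III, was at 54.7 and 53.5 CPM in shallow and deep barcodes of the 10% aliquot and at 55.3 and 54.6 CPM in the 90% aliquot. The largest catalytic subunit, Polr1a, had log2 folds of 0.28 (-0.59 to 1.33) and 0.11 (-0.24 to 0.49). For Rrn3, the initiation factor that links the polymerase to growth signals, the log2 folds were -0.38 (-1.14 to 0.39) and 0.09 (-0.16 to 0.35). Polr1b had only 11 and 23 UMIs in the sets of the 10% aliquot, with a log2 fold of -0.98 (-2.22 to 0.05), and -0.01 in the 90% aliquot.

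Most of the 20 small subunit factors lay within 2-fold, with 1 higher and 1 lower in the 10% aliquot and 2 higher and 0 lower in the 90% aliquot. The background was 26.4% of all genes higher in each aliquot, and 18.1% and 17.6% lower. Emg1, which methylates a pseudouridine of 18S rRNA, was at 113 and 163 CPM in the 10% aliquot and at 132 and 215 CPM in the 90% aliquot. Pno1, the partner of the endonuclease Nob1 in late maturation, was at 26.9 and 54.5 CPM and at 24.3 and 76.5 CPM, folds of 1.99 and 3.06. Fcf1, an endonuclease that cleaves the precursor early, was at 22.4 CPM (14.5 to 33.1) and 53.9 CPM (47.7 to 60.7) in the 10% aliquot and at 25.3 and 60.6 CPM in the 90% aliquot, a fold of 2.34 in each. These 3 genes had counting intervals above 1 in both aliquots. Thinned to 3000 UMIs, Pno1 lay below 1 in the 10% aliquot, with a log2 fold of -0.26 (-2.13 to 1.34) from 12 and 5 UMIs, and at 1.53 in the 90% aliquot.

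Genes of the early U3 processome, the complex that packs the nascent precursor, lay on both sides of 1. Nop14 was at 125 and 45.3 CPM in the 10% aliquot and at 76.1 and 41.4 CPM in the 90% aliquot, 2.72-fold and 1.82-fold lower. Mphosph10, which binds Imp3 and Imp4 in that complex, was at 71.8 and 39.6 CPM and at 57.8 and 30.3 CPM, 1.79-fold and 1.88-fold lower. Wdr43 was at 91.5 and 60.8 CPM and at 76.9 and 62.3 CPM, with log2 folds of -0.58 and -0.30. The counting intervals of Utp3 and Utp14a and of Ltv1, a factor of late maturation and export, also lay below 1 in both aliquots, with log2 folds from -0.79 (Ltv1, 10% aliquot) to -0.44 (Ltv1, 90% aliquot). Of further processome genes, Utp4 had log2 folds of -0.85 and -0.06, Rrp9 (a protein of the U3 snoRNP) -0.19 and 0.11 and Heatr1 (a large scaffold protein) -0.06 and -0.29. Utp20, with 0.27 and 0.86, Utp18, with 0.07 and 0.35, and Imp4, with 0.08 and 0.27, had counting intervals above 1 in the 90% aliquot, and Utp15 (-0.23 and -0.75) and Imp3 (-0.29 and -0.23) had intervals below 1 there. The endonuclease Nob1, which makes the end of 18S rRNA, had -0.20 and 0.31.

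Of the 13 large subunit factors 12 passed the limit on level, with 2 higher and 2 lower in the 10% aliquot and 1 higher and 2 lower in the 90% aliquot. Beside these stand 26.4% of all genes higher in each aliquot, and 18.1% and 17.6% lower. Bop1 forms the PeBoW complex with Pes1 and Wdr12. It was at 9.87 CPM (4.93 to 17.7, 11 UMIs) and 29.0 CPM (24.5 to 34.1, 148 UMIs) in the 10% aliquot and at 10.8 and 35.5 CPM in the 90% aliquot, folds of 2.76 and 3.08. Pes1 was at 20.6 and 33.0 CPM and at 20.6 and 37.9 CPM, with log2 folds of 0.65 and 0.85. Wdr12 had log2 folds of 0.29 (-0.19 to 0.81) and 0.76 (0.56 to 1.01). The short-read folds of the 3 genes of this complex thus lay above 1, though the interval of Wdr12 in the 10% aliquot held 1. In nanopore reads of that aliquot the log2 folds were 1.46 (Bop1), 0.86 (Wdr12) and 0.07 (Pes1, -0.30 to 0.46). Ebna1bp2, an early assembly factor, was at 49.3 and 127 CPM in the 10% aliquot and at 77.5 and 126 CPM in the 90% aliquot, folds of 2.54 and 1.62.

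Rrs1, which helps bring the 5S RNP into the large subunit, was at 122 CPM (102 to 144) and 44.3 CPM (38.7 to 50.5) in the 10% aliquot and at 150 and 68.2 CPM in the 90% aliquot, 2.71-fold and 2.18-fold lower. Gnl2, a nucleolar GTPase of late nuclear steps, was at 65.5 CPM (51.3 to 82.4) and 26.5 CPM (22.2 to 31.3) and at 56.6 and 25.6 CPM, 2.42-fold and 2.16-fold lower. Both were thus lower in deep barcodes by more than the limit in each aliquot. Nip7, an RNA-binding factor, was at 64.6 and 46.7 CPM and at 101 and 60.9 CPM, 1.38-fold and 1.65-fold lower. Nle1, which docks on the remodelling ATPase Mdn1, was at 15.3 and 18.0 CPM and at 17.2 and 19.7 CPM, with log2 folds of 0.23 (-0.51 to 1.08) and 0.18 (-0.10 to 0.50). Ddx18, an RNA helicase, was at 76.3 and 82.0 CPM and at 51.5 and 62.8 CPM. Wdr74, below the limit on level, had 1 and 8 UMIs in the sets of the 10% aliquot.

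Gnl2 overlaps the processed pseudogene Gm12931 on its own strand, and 22 of the 50 members overlap another gene model on the opposite strand, Gnl3, Nhp2, Fcf1, Pno1, Nle1, Bop1 and Heatr1 among them. Whether the authors counted reads by strand is not given in the sources used here, so reads of such a pair cannot be told apart in the short-read counts.

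Each set was divided further to see where the differences lay. Shallow barcodes with a Myod1 UMI, compared with those without one at like depth (medians of 6664 and 6792 UMIs in the 10% aliquot, 4729.5 and 4613 in the 90% aliquot), gave 0.444% against 0.356% of UMIs to members in the 10% aliquot and 0.402% against 0.341% in the 90% aliquot. Of the 50 members 39 and 42 were higher in the Myod1-positive barcodes in the 10% and 90% aliquots, beside 48.4% and 51.2% of all genes past the limit on level. Gnl3 was at 418 CPM (367 to 473) in Myod1-positive and 273 CPM (230 to 321) in Myod1-negative shallow barcodes of the 10% aliquot, and at 275 CPM (257 to 293) and 236 CPM (220 to 254) in the 90% aliquot. It was the only member whose counting intervals were apart in both aliquots. Of the 157 shallow barcodes of the 10% aliquot 144 were shallow barcodes of the 90% aliquot too, so these are not separate results. Intervals of single members were not compared by Myod1 in unshared barcodes. There the members took 0.397% of UMIs with and 0.336% without Myod1. Ncl, Ddx21, Nhp2, Nop10, Rrp9 and Nip7 were apart in the 90% aliquot, all higher with Myod1, and Fcf1 in the 10% aliquot (37.1 against 5.76 CPM, from 22 and 3 UMIs). The share of all genes with intervals apart by Myod1 was not computed. The genes lower in deep barcodes (Gnl3, Ddx21, Nip7) and some of those higher in deep barcodes (Ncl, Nhp2, Nop10) were thus both higher with Myod1 within the shallow set.

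The 21 and 148 barcodes of shallow depth that did hold a UMI of Rrm2, Top2a or Cdk1 gave 0.460% and 0.469% of UMIs to members. In these barcodes Ncl was at 1278 and 822 CPM, above its level in both shallow and deep barcodes of the same aliquot. Npm1 was at 1169 and 1105 CPM there, between its shallow and deep levels. Bop1 was at 26.6 CPM (17.5 to 38.7) in those of the 90% aliquot, an interval that holds its deep level. Gnl3 (235 CPM, 206 to 266) and Gnl2 (58.2 CPM, from 59 UMIs) had intervals that hold their shallow levels in the 90% aliquot. Nop58 (278 CPM, 247 to 312) and Rrs1 (110 CPM, 90.9 to 133) lay there between their shallow and deep levels, while Nop58 in the 10% aliquot, at 377 CPM, was at its shallow level.

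Deep barcodes with at least 3 UMIs of Myog, the myogenic factor of differentiating cells, gave members a similar share to other deep barcodes (0.538% of 8 barcodes against 0.533% of 71 in the 10% aliquot, 0.543% of 74 against 0.565% of 532 in the 90% aliquot). In the 90% aliquot the counting intervals of Ncl, Npm1, Gar1, Nhp2 and Imp4 were lower with Myog, and Npm1 was at 2061 against 2185 CPM. The 10% aliquot gave no such member, and there Imp3 and Nip7 were higher with Myog. No member was apart in the same direction in both aliquots. For Myog, too, the share of all genes with intervals apart was not computed.

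**Figure D3:**
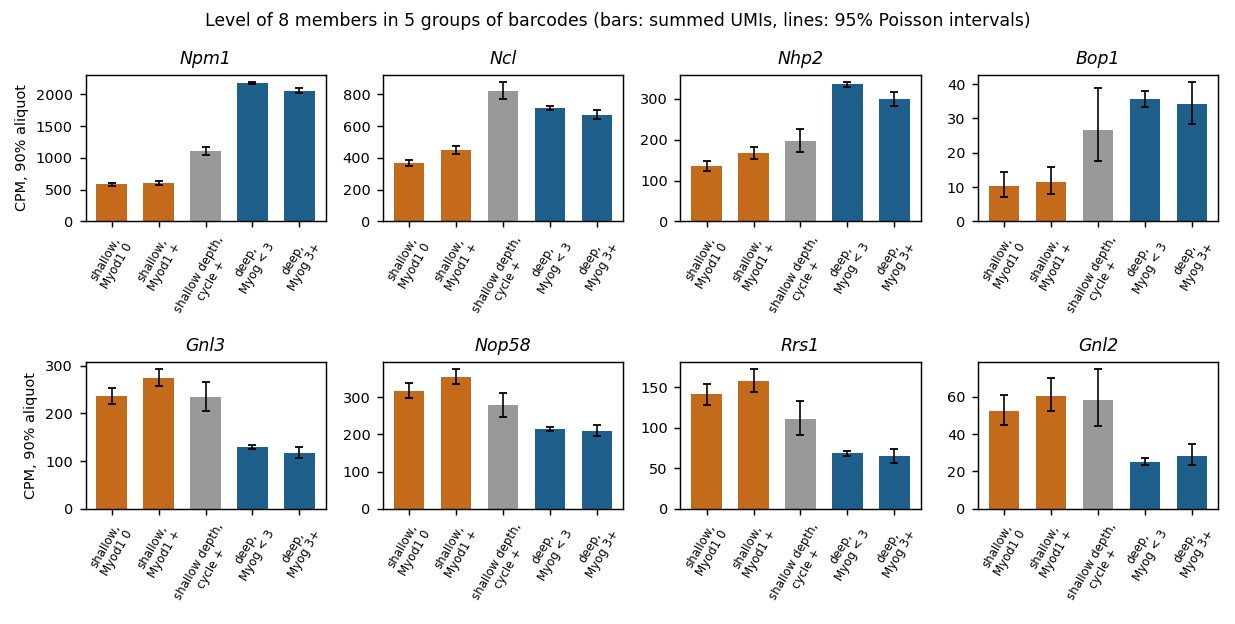
Level in CPM of 8 members in 5 groups of barcodes of the 90% aliquot, from left to right shallow without and with a Myod1 UMI, shallow depth with a UMI of Rrm2, Top2a or Cdk1, and deep with under 3 and with at least 3 Myog UMIs; bars are summed UMIs and lines 95% Poisson intervals. Npm1, Nhp2 and Bop1 step up and Gnl3, Nop58, Rrs1 and Gnl2 step down between the orange and the blue bars, and Ncl is highest in the grey bar (822 CPM).

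Of 119 further genes of the pathway that are no members, 109 and 110 passed the limit on level in the 10% and 90% aliquots. In these, 23 were higher and 13 lower (21.1% and 11.9%) in the 10% aliquot, and 23 were higher and 11 lower (20.9% and 10.0%) in the 90% aliquot. Over all genes tested 26.4% were higher and 18.1% lower in the 10% aliquot, and 26.4% and 17.6% in the 90% aliquot. These shares are the background for each list that follows, and most of the lists are short. Factors that assemble snoRNPs were higher in 5 of 9 in each aliquot and lower in 0, among them Ruvbl2 (log2 folds of 1.67 and 2.38) and Rpap3 (2.32 and 1.67), partners in the R2TP chaperone, while Nufip1 had -0.61 and -0.60. Genes of the RNA exosome and of rRNA nucleases were higher in 7 of 14 in each aliquot and lower in 0, with Exosc8 at 2.22 and 2.03 and Exosc5 at 1.83 and 1.73. Large subunit factors outside the members went both ways, with 5 of 40 higher and 8 lower in the 10% aliquot and 4 and 7 in the 90% aliquot. There the highest were Pelp1 (2.68 and 2.35) and Pinx1 (1.28 and 1.60), and Surf6 was at -2.25 and -1.58. For small subunit factors 3 of 37 were higher and 3 lower, and 5 of 38 and 3, with Aatf at 1.57 and 1.54 and Riok1 at -1.76 and -1.31. Polymerase I factors had 3 of 9 higher and 2 lower, and 2 and 1, with Ubtf, the architectural factor of rDNA, at 1.01 and 1.24 and Taf1a at -1.73 and -1.02. Genes of cytosolic ribosomal proteins, the final cargo of the pathway, lay close to 1, with 2 of 79 higher and 0 lower in each aliquot and medians of -0.04.

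Of the regulators listed, Myc, the transcription factor best known for driving ribosome biogenesis genes, was at 395 CPM in shallow and 43.9 CPM in deep barcodes of the 10% aliquot and at 456 and 53.1 CPM in the 90% aliquot. Its partner Max was at 68.2 and 32.0 CPM and at 89.0 and 42.4 CPM. Cdkn1a, the p21 inhibitor of the cell cycle, had log2 folds of -1.74 and -1.73. Trp53 went the other way, with 1.14 and 0.77. Mxd4 (-0.30 and -0.56), Mxi1 (0.23 and -0.38) and the scarce Mycn (0.06 and -0.45) lay within 2-fold.

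Myc and Max bind the E-box CACGTG, so the promoter windows of RefSeq (assembly GRCm38.p6, 250 bases before to 50 bases after each start) were searched for these letters, which read the same on both strands. Windows were found for 44 of the 50 members and not for Npm1, Fbl, Fcf1, Bop1, Rrs1 and Gnl2. The letters occurred in 13 of the 44 (29.5%, exact interval 16.8 to 45.2), in 14 of 100 other pathway genes (14.0%), in 781 of 6256 genes that passed the limit on level (12.5%) and in 2187 of 27025 genes with a window (8.09%). Among cytosolic and mitochondrial ribosomal protein genes the share was 9.68% and 5.88%. Members with and without the letters overlapped in their folds. Of the 13 with them 8 lay above and 4 below 1 in both aliquots, and of the 31 without them 14 and 15. The sites that lie wholly upstream of a start, with 12 bases on each side, are shown here because they show how the letters sit in promoters of different roles, with the E-box in capitals and read on the strand of the gene.
Imp4 (chr1:34439696-34439725, plus strand, E-box from -121): acggtcttagacCACGTGacatcccaaatc
Nop2 (chr6:125131811-125131840, plus strand, from -60): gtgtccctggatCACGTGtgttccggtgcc
Rrn3 upstream site (chr16:13780472-13780501, plus strand, from -215): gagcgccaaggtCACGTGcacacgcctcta
Rrn3 second site (chr16:13780639-13780668, plus strand, from -48): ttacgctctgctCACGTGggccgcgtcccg
Utp18 (chr11:93885769-93885798, minus strand, from -20): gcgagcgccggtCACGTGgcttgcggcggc
The flanks differ between these genes, and Rrn3 was the only member with more than 1 E-box in a window. In Mybbp1a, Pes1, Pno1, Nle1, Ltv1, Tsr1, Utp20, Utp4 and Wdr43 the letters lay after the start. A match of letters is a description and not a site of binding.

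Box C/D and H/ACA snoRNAs are themselves made from introns, and 7 of the 50 members (14.0%) hold an annotated snoRNA gene in Gencode vM21: Dkc1, Gnl3, Ncl, Nop56, Nop58, Tsr1 and Wdr43. Among 7766 protein-coding genes that passed the limit on level, 164 (2.11%) do. Of these 7 hosts Ncl and Dkc1 were higher and the other 5 had log2 folds below 0 in deep barcodes of both aliquots.

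Nanopore reads of the 10% aliquot were counted by isoform for the same barcodes, with 1382498 UMIs in shallow and 4628237 in deep barcodes. The authors' counts also include reads that cover an isoform only in part. Of the members 47 were in this table, and Utp3, Imp3 and Rrs1, which have a single exon, were not. Like them, most genes of a single exon were missing, with 14 of 154 present. By the same 2-fold limit 4 of 47 were higher (Bop1, Dkc1, Npm1 and Pno1), against 24.9% of 8743 genes, and 4 were lower (Gnl2, Gnl3, Heatr1 and Nop14), against 20.6%. Npm1 was at 1575 and 4038 CPM of long-read UMIs, Gnl3 at 333 and 165 CPM, and Gnl2 at 109 and 41.1 CPM. Direction was that of the short reads in 38 of 47 members. Counting intervals of the assays were apart for Ncl, Ddx21 and Fbl, whose log2 fold was 0.03 (-0.13 to 0.19) in long reads and -0.66 (-1.09 to -0.24) in short reads. The folds differed most in Heatr1, with -1.32 (-1.79 to -0.93) in long reads and -0.06 in short reads, then in Wdr74 (-0.47 and 0.44), Utp4 (0.03 and -0.85) and Fcf1 (0.43 and 1.23), with overlapping intervals in these 4.

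The share of isoforms was compared for the 39 members with at least 50 long-read UMIs in each set. In 9 of them (23.1%) the share of an isoform differed by at least 20 points, against 17.3% of 3265 genes. The background is close, and with at least 20 UMIs in each set the share of members (28.3% of 46) was below that of all genes (29.3%). By the mean over barcodes of each barcode's share 11 members (28.2%, against 12.5% of genes) passed, with Ddx21 (18.6 points) and Polr1c (13.0 points) lost and Dkc1, Mphosph10, Rrp1 and Utp4 gained. Fcf1 and Nle1, both among the 9, were named for this comparison beforehand, with earlier results of these data known. The counts of members are therefore not free of that choice. The members are described for what their isoforms were. In 7 of the 9 the isoform that took a larger share of deep barcodes was a protein-coding reference transcript that reaches the coding 3′ end. The coding 3′ end means the 3′ end of any protein-coding reference transcript of the gene, to within 100 bases.

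Fcf1 lies on chromosome 12 at 84970897 to 84983303, plus strand (mm10). Its reference transcript Fcf1-201, with 8 exons, had 19 of 73 UMIs in shallow barcodes (26.0%, 16.5 to 37.6) and 286 of 332 in deep barcodes (86.1%, 82.0 to 89.7), a difference of 60.1 points (48.3 to 69.4), which was 39.6 points by the mean over barcodes. In shallow barcodes most UMIs fell on an isoform from 84970931 to 84971756, which ends inside an intron after 6.92% of the gene and spans 826 of its 12407 bases. It had 50 of 73 UMIs in shallow (68.5%) and 41 of 332 in deep barcodes (12.3%). Fcf1-201 was counted in 15 of the 33 shallow and 59 of the 66 deep barcodes that had Fcf1 at all. No barcode gave more than 12 of the shallow UMIs of the gene. Among shallow barcodes its share was 13.6% (3 of 22 UMIs) without and 31.4% (16 of 51) with Myod1, with overlapping intervals. In deep barcodes it was 84.6% with under 3 and 100% (33 of 33) with at least 3 Myog UMIs.

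Nle1 lies on chromosome 11 at 82900768 to 82908411, minus strand. Its reference transcript Nle1-201, with 13 exons, had 28 of 105 UMIs in shallow (26.7%, 18.5 to 36.2) and 222 of 293 in deep barcodes (75.8%, 70.4 to 80.6), a difference of 49.1 points (38.5 to 57.9). Several isoforms took the rest in shallow barcodes. One from 82906965 to 82908367, which ends inside an intron after 18.9% of the gene, had 19 UMIs in shallow (18.1%) and 0 in deep barcodes, where 0 of 293 allows a share of up to 1.02%. Another with the ends of nearly the whole gene (82900772 to 82908367) had 17.1% and 1.02%. The share of Nle1-201 was 72.3% of 253 UMIs in deep barcodes with under 3 Myog UMIs and 97.5% of 40 with at least 3. In shallow barcodes it was 12 of 41 UMIs without and 16 of 64 with Myod1. So in Nle1 the isoform shares differed by more than counting error, while the intervals of its short-read fold held 1.

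Ddx18 (chromosome 1, 121553835 to 121567989, minus strand) had Ddx18-201, of 13 exons, at 23.2% of 82 UMIs in shallow and 63.1% of 274 in deep barcodes, and the mean over barcodes was 36.0% and 59.0%. An isoform from 121562839 to 121567941 that ends inside an intron after 36.4% of the gene went from 37.8% to 1.82%. Heatr1 (chromosome 13, 12395027 to 12440289, plus strand) had no isoform named after a reference transcript. Its isoform from 12422248 to 12438893, at the 3′ end of the gene, took 9.76% of 82 and 40.2% of 107 UMIs. An isoform from 12395393 to 12398796 near its start, ending inside an intron, took 29.3% and 1.87%, and another from 12395401 to 12400747 took 20.7% and 3.74%. Isoforms that end inside an intron, near the start or in the middle of the gene, held 61 of its 82 UMIs in shallow barcodes.

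In Utp14a the reference transcript Utp14a-201 took 44.6% of 56 UMIs in shallow and 80.3% of 183 in deep barcodes. Nob1-201 took 39.9% of 173 and 75.6% of 495 UMIs of Nob1, whose isoform from 107424190 to 107425041 on chromosome 8, ending inside an intron, took 13.9% and 2.42%. Rrp9-201 took 56.6% of 159 and 85.1% of 564 UMIs of Rrp9. Polr1c-201 took 66.0% of 156 and 87.2% of 500 UMIs of Polr1c, the smallest of these differences (21.2 points, 13.5 to 29.4). Ddx21 differed from this pattern. Its isoform from 62582114 to 62602267 on chromosome 10 took 31 of 130 and 195 of 398 UMIs. This isoform ends at 91.5% of the gene, inside an exon of a protein-coding reference transcript. Whether the end lies in the translated or an untranslated part of that exon was not examined. One that reaches the coding 3′ end took 46.2% and 26.6%.

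**Figure D4:**
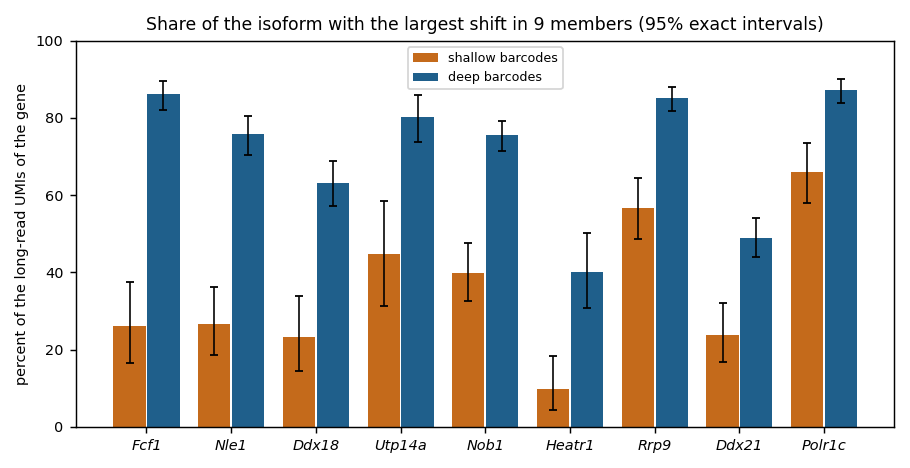
Percent of the long-read UMIs of each gene on the isoform whose share differed most, in shallow and deep barcodes of the 10% aliquot, for the 9 members past 20 points, with exact 95% binomial intervals. All 9 isoforms have a larger share in deep barcodes, from 26.0% and 86.1% in Fcf1 to 66.0% and 87.2% in Polr1c.

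The ends of the isoforms were then compared over all members, a measure chosen after these values were seen. An isoform was counted as ending inside an intron when its 3′ end lay within the gene, in no exon of its protein-coding reference transcripts and over 100 bases from every reference 3′ end. Ends in exons that only reference transcripts of other types hold were thus counted as well. The share of such UMIs was lower in deep barcodes in 26 of the 39 members and higher in 0, with 13 members at 0 in both sets. Over all 3197 protein-coding genes it was lower in 1249 and higher in 391. It was lower by at least 20 points in 5 members (12.8%), against 6.51% of genes: Heatr1 (74.4% and 8.41%), Fcf1 (68.5% and 12.3%), Ddx18 (58.5% and 6.20%), Nle1 (23.8% and 2.05%) and Utp14a (26.8% and 6.01%). Summed over the 39 members it was 5.54% of long-read UMIs in shallow and 0.640% in deep barcodes, beside 4.13% and 1.43% over all genes. The 5 members include Fcf1 and Nle1, which were named beforehand, so the excess over all genes is not free of that choice.

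The share of UMIs on isoforms that reach the coding 3′ end was higher in deep barcodes by at least 20 points in 7 members (17.9%). The background was 7.54% of genes. The 7 members were Fcf1, Ddx18, Heatr1, Gnl3 (46.6% and 76.3%), Utp14a, Nob1 and Nle1. Fcf1 and Nle1 had been named beforehand, so this excess is not free of that choice either. With a tolerance of 500 bases in place of 100 for a reference 3′ end it was 5 members (12.8%), against 8.01% of genes.

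Smaller shares ending inside an intron were found in members of every role. Dkc1 had 17.9% of 84 UMIs in shallow and 0.318% of 629 in deep barcodes, on an isoform from 75096069 to 75102059 on chromosome X. Mphosph10 had 27.0% and 12.5%, Wdr43 12.7% and 0.943%, and Nolc1 12.6% and 1.24%. Nop58 had 7.05% of 468 and 2.56% of 939 UMIs. In 15 members 23 isoforms ended inside an intron and took at least 5% of UMIs in either set. All 23 were lower in deep barcodes, and the interval of the difference lay below 0 for 22. Those that passed the 5% limit through shallow barcodes alone were bound to be lower in deep ones. The same count over all genes was not computed. The 23 isoforms ended after 6.85% to 83.8% of the gene, with a median of 36.2%. None of them overlapped exons of a protein-coding gene on the opposite strand.

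**Figure D5:**
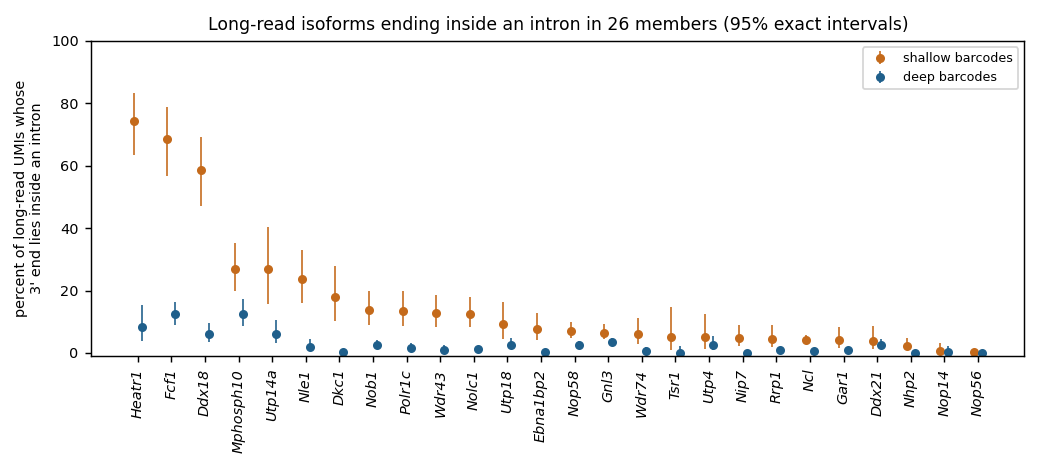
Percent of the long-read UMIs of a gene whose 3′ end lies inside an intron, in shallow and deep barcodes of the 10% aliquot, for the 26 eligible members with any such UMI, with exact 95% binomial intervals. Heatr1, Fcf1 and Ddx18 are at 58.5% to 74.4% in shallow barcodes and under 13% in deep barcodes, and no member is higher in deep barcodes.

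Counting only the long-read UMIs of isoforms that reach the coding 3′ end changed the level of some members. Fcf1 then had 19 and 286 UMIs and a log2 fold of 2.09, against 0.43 with all long reads. For Ddx18 it was 1.14 (0.66 to 1.74) against 0.00, with 34 and 257 UMIs, and for Heatr1 0.53 (-0.29 to 1.56) against -1.32, with 13 and 65 UMIs. The log2 fold was higher by this count than by all long reads in 26 of the 33 members that had any such UMI, and Ncl, Utp18, Imp4, Bysl, Ltv1 and Wdr12 had 0 in both sets. This restates the shares above, since both folds use the same totals and differ only by the share that reaches the coding 3′ end. Over all 3197 protein-coding genes that share was higher in deep barcodes in 1501 and lower in 667. At least 2-fold higher were then Npm1, Dkc1, Nhp2, Fcf1, Pno1 and Ddx18, and at least 2-fold lower were Nop14 (-1.15) and Gnl2 (-1.22). The share of all genes past 2-fold by this count was not computed. Nop14 and Gnl2 were thus lower by this count as well. Shares, intervals and counts of isoforms come from 1 aliquot, and the depth of a barcode was not separated from its set.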

How the data were processed

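UMI counts per gene were deposited by the authors for each aliquot, made from Illumina reads with scPipe, and UMI counts per isoform for the 10% aliquot, made from nanopore reads with FLAMES after alignment with minimap2 2.17. The labels name GRCm38.p6 and Cell Ranger 1.3. The deposited counts are not normalized and no cell filter is stated. A deposited isoform annotation was used only to check isoform names, since many counted isoforms have no entry there, so exon structures were taken for reference transcripts alone. The barcode lists also hold a count of unstated meaning, which was not used.

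The members and the gene lists were chosen with earlier results of these data known. UMIs were summed over the barcodes of a set and divided by all UMIs of the set (CPM). Folds were taken on CPM + 1 and called at 2-fold for genes with a mean of at least 5 CPM, so folds of low genes are understated. Intervals (95%) are exact Poisson for CPM, conditional exact for ratios, Clopper-Pearson for shares and Newcombe for differences of shares. A count of 0 allows 3 counts of the total. Doublets were not called, and the effect of free RNA was not tested. Ends of isoforms were taken from their names. Gene models came from Gencode vM21 and promoters from RefSeq.

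Named were, in each role group, the 4 members with most short-read UMIs and the highest and lowest fold, Nle1 and Fcf1, members lower in deep barcodes in both aliquots and members with a shift of isoform share, the 2 highest and 2 lowest of each further list as far as shown, and all regulators. Other members were named after their values were seen. Scripts used Python 3.11.15, numpy 2.4.6, pandas 2.3.3 and scipy 1.17.1 and were tested on simulated data. Alternatives were other scalings, thinning to 3000 UMIs, other limits for the sets, pseudocounts, filters and folds, and other limits for isoform shares. Leaving out shared barcodes or barcodes with immune UMIs, the classes of 3′ ends and the comparison of long with short reads by member were chosen after seeing the data. The design foresaw protein features, which were not computed.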

Additional observations from a re-analysis of the deposited data

How the results depend on the processing

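No paired analysis was possible because each aliquot is 1 sample and the results come from no test. Of 1300 recomputed log2 folds of members, 1238 stayed past 2-fold if they had been past it, or within their counting interval if not. Below 2-fold fell 10, 27 newly passed it in their own direction, 25 left their counting interval otherwise, and 0 past 2-fold turned direction. Some folds that had not reached 2 passed it in the opposite direction. With thinning in the 10% aliquot Nle1 went from 0.23 to -1.78, Polr1a from 0.28 to -3.25 and Wdr74 from 0.44 to -1.64, all from few UMIs. Folds that had not reached 2 turned direction most often with thinning to 3000 UMIs, in 14 cases, among them Pno1 and Dkc1 in the 10% aliquot. With thinning 11 members were lower in the 10% aliquot in place of 4 (20.6% of all genes), and 1 in both aliquots (13.6%). With shallow barcodes of 5000 to 12000 UMIs 4 were lower in the 90% aliquot (17.2%). With a pseudocount of 10 CPM 3 were higher in the 10% aliquot (15.7%) and 2 in both (13.5%), and 1 was lower in the 90% aliquot (10.2%) and 1 in both (8.84%). With a fold of 1.5, 11, 14 and 10 were higher in the 10% aliquot, the 90% aliquot and both, beside 37.2%, 38.1% and 33.1% of all genes, and 12, 9 and 7 were lower, beside 26.4%, 25.5% and 22.0%. With a fold of 3, 0, 3 and 0 were higher, beside 15.0%, 14.2% and 11.6%, and 0, 0 and 0 lower, beside 10.5%, 10.6% and 8.80%. The median share of UMIs on members, taken without Ncl and Npm1, was 0.293% and 0.291% in shallow and deep barcodes of the 10% aliquot and 0.285% and 0.298% in the 90% aliquot. With mitochondrial and ribosomal protein genes left out of the denominator, and Ncl and Npm1 included, the share of all 50 members was 0.462% and 0.616%, and 0.430% and 0.650%. Members past the limit on isoform share were 5 of 28 with at least 100 UMIs in each set (10.6% of all genes), 25 of 39 at 10 points (53.5% of all genes) and 0 of 21 among isoforms named after a reference transcript alone (5.65%), where most genes have a single named isoform. The cause of these moves was not tested. The other 123 recomputed counts, medians and shares stayed within 1.5 times or within their interval.

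Depth limits Polr1a, Polr1b, Utp15, Utp20, Heatr1, Bysl, Bop1 and Nop2 in the 10% aliquot, each with 11 to 14 UMIs in shallow barcodes, and Wdr74 in both aliquots. The 9 members with a shift of isoform share have 56 to 173 long-read UMIs in shallow barcodes. The counts of both aliquots come from 1 capture and in part from the same barcodes, so their likeness says nothing of other mice.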

Other observations

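Genes of mitochondrial ribosomal proteins, measured beside the cytosolic ones as a second family of ribosome parts, were higher in deep barcodes in 55 of 76 in the 10% aliquot and 58 of 76 in the 90% aliquot, with 0 lower and median log2 folds of 1.54 and 1.66. Of all genes tested 26.4% were higher in each aliquot. The summed levels that follow are of whole families. That of mitochondrial ribosomal protein genes was 2420 and 6167 CPM in shallow and deep barcodes of the 10% aliquot and 2563 and 6636 CPM in the 90% aliquot. The summed level of cytosolic ribosomal protein genes was 130408 and 125496 CPM and 125701 and 121042 CPM. The 50 ribosome biogenesis genes, at 4343 and 5515 CPM and at 4019 and 6030 CPM, lay between these families in the ratio of the sums, but this rested on Npm1 and Ncl. The other 48 were at 3209 and 2962 CPM and at 3020 and 3153 CPM.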
